A study of Mus musculus with 6 samples.

Results

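The genes described here are 9 genes of the amyloid precursor protein (APP) pathway: App and its homolog Aplp2, the beta-secretase genes Bace1 and Bace2, the gamma-secretase genes Psen2, Ncstn, Aph1a and Psenen, and Ide, which encodes insulin-degrading enzyme. They were taken from the 54532 genes of a table of read counts by their gene symbols, a rule that uses no expression value, although the list of symbols was drawn up with earlier results of these data known. RNA-seq was performed on N9 microglia, an immortalized mouse microglial cell line. The 3 LPS libraries came from cells given lipopolysaccharide (LPS), a component of the gram-negative bacterial outer membrane that activates microglia, at 1 µg/ml for 6 h. The 3 control libraries came from untreated N9 cells, for which the labels give no time. Both groups are of the same cell line, so the comparison is of 1 line in culture, and no primary microglia were included. Because these are bulk libraries, fewer cells carrying a transcript and less RNA per cell cannot be told apart.

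APP is a membrane protein that is cut in alternative ways. Cleavage by beta-secretase (BACE1) and then by gamma-secretase, a complex of a presenilin (such as PSEN2) with nicastrin (NCSTN), an APH-1 protein and PEN-2 (PSENEN), releases amyloid-β (Aβ), whereas cleavage by alpha-secretases such as ADAM10 falls within Aβ and prevents its release. IDE is a zinc metalloprotease that degrades insulin and monomeric Aβ, and microglia are known for taking up and degrading Aβ in Alzheimer's disease.

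The stretch of the App transcript that encodes Aβ is shown because the secretases cut the protein that it encodes. In App-201, a coding transcript of 695 codons in GENCODE release M21, the 42 codons of Aβ run from codon 597 to codon 638. They are in capitals, after the 6 codons before them in lower case.
App-201 Aβ: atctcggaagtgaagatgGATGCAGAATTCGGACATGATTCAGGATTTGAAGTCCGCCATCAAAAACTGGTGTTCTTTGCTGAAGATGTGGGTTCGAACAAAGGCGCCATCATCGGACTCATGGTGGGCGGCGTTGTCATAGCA
In the encoded protein, the beta-secretase cut lies where the lower case ends, and gamma-secretase cuts near the end of the capitals. The stretch is read from the minus strand of exon 14 (GRCm38, chr16:84965670-84965738) and exon 15 (chr16:84962794-84962868) of the 16 exons. App has 11 annotated transcripts, 6 of them coding, and the deposited counts are per gene, so transcripts with and without a given exon are summed.

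Library totals lay between 16363767 and 17956772 counts, and 3 counts corresponded to between 0.161 and 0.19 CPM (counts scaled to a common library size, the unit used for all levels here). The counting error given for Bace1 covers the counting of reads only, and the reads carry no molecular identifiers. The 95% intervals come from the edgeR fit and include the spread between libraries. The sources do not say that the replicates were separate cultures, so p-values rest on a spread between libraries that may be technical. In the edgeR test, the spread of a gene is also drawn toward the trend over all tested genes. Tnf, an LPS-induced cytokine gene, rose from 15.8 ± 1.51 to 233 ± 4.37 CPM (SD, n = 3 each; log2 fold change 3.88, SE 0.06, edgeR adjusted p = 1.6e-15). All 14 microglia and macrophage markers exceeded 3 counts in at least 1 library, and their sum was 2221 to 2287 CPM in control and 2421 to 2495 CPM in LPS libraries, although P2ry12 and Aif1 stayed at single-digit counts. Neuronal markers summed to 31.0 to 32.1 CPM in control and 25.2 to 27.0 CPM in LPS libraries, with Gad2 at 0, and oligodendrocyte markers to 33.6 to 40.0 and 28.3 to 29.7 CPM, with Olig2 at 0. Each sum rested mainly on 1 gene, Map2 (22.5 CPM in control and 16.9 CPM in LPS libraries) and Mbp (36.1 and 28.5 CPM), while Syn1 was at 7.93 and 8.47 CPM and every other gene of both lists had at most 17 counts. Whether these genes bear on the results was not tested. Astrocyte markers summed to 96.0 to 98.7 CPM in control and 96.0 to 105 CPM in LPS libraries, where Gja1 was higher (68.0 and 77.1 CPM) and Aldh1l1 lower (28.3 and 23.1 CPM). Nearly all of that sum came from Gja1 and Aldh1l1, and every other gene of the astrocyte list had at most 18 counts in any library. A list of 18 hepatocyte markers stood apart in control replicates 2 and 3, with 349 and 559 counts, against 9 in control replicate 1 and 6 to 15 in LPS libraries. The fold changes of the 8 tested members and some counts of calls are therefore also given without control replicates 2 and 3. That fit assumes that the lone control library varies like the LPS libraries, and with 1 control library it has less power for calls.

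In LPS-stimulated versus control cells, App rose by 27.6%, Psenen rose by 10.5% at an adjusted p close to the threshold, and Ide fell by 13.0%, while Aplp2, Bace1, Psen2, Ncstn and Aph1a did not pass the test and Bace2 was too low to test. In the fit without control replicates 2 and 3, which has less power, the log2 fold change was 0.11 for Psenen and -0.11 for Ide. Neither gene was called there, and the call of Psenen was also lost in every fit that left out 1 library. Of the 8 genes tested, 2 were called higher (25%) and 1 lower (12.5%) at a Benjamini-Hochberg adjusted p under 0.05 over all genes, against 18.7% called higher and 15.7% called lower among the 12296 genes tested. The number called higher was 1 in every fit that left out 1 library, in 6 of 11 other settings and without control replicates 2 and 3, and it was 3 with the replicate block and among protein-coding genes alone. The shares of 25% and 12.5% lie near the background, so the number called is not a result about these genes. No member was a DEG, that is, also past an absolute log2 fold change of 1.5, against 2.65% of all genes tested. The libraries of the groups did not overlap for 4 of the 8 genes (App, Psenen and Ncstn higher, Ide lower), against 45.3% of all genes tested. The median log2 fold change of the 8 genes was 0.06, against 0.00 over all genes tested, and the median absolute change was 0.13, against 0.17.

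**Figure D1:**
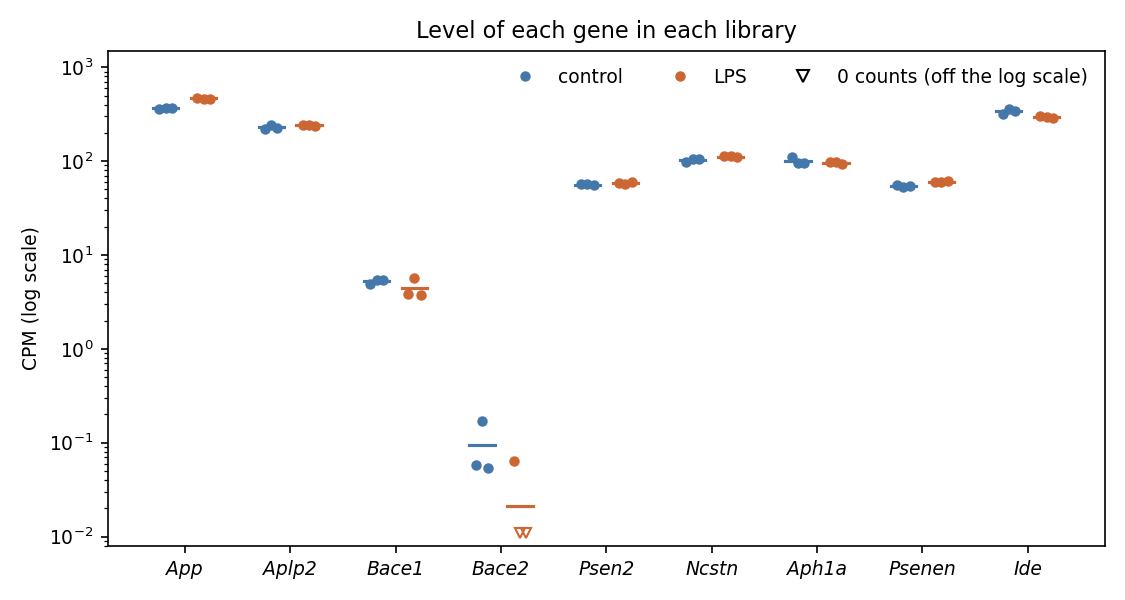
Level of each of the 9 genes in each library, in CPM on a log scale, with control libraries in blue, LPS libraries in orange and a bar at each group mean. App, Aplp2 and Ide lay above 200 CPM in all 6 libraries, Bace1 lay below 6 CPM, and Bace2 had between 0 and 3 counts (open triangles mark 0 counts).

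App encodes the precursor itself (ENSMUSG00000022892, mm10 chr16:84949685-85173766, minus strand). It was at 359.7, 370.4 and 366 CPM in control replicates 1 to 3 and at 474, 465 and 459.7 CPM in LPS replicates 1 to 3. Every LPS library was higher than every control library, and the spread within each group was small (CV 1.47% in control and 1.53% in LPS). The mean went from 365 ± 5.36 to 466 ± 7.12 CPM, a rise of 27.6% (95% interval 20.7% to 34.8%; log2 fold change 0.35, SE 0.04, edgeR quasi-likelihood adjusted p = 3.1e-06). The absolute change was at the 74.5th percentile of all genes tested. The call held in each of the 6 fits that left out 1 library (log2 fold change 0.33 to 0.36) and in all 11 other settings (0.25 to 0.37), and without control replicates 2 and 3 the change was 0.37 (SE 0.06, edgeR adjusted p = 2.9e-04). Antisense genes within App carried at most 5 counts in any library.

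Aplp2 encodes the APP homolog that is cut by the same secretases but has no Aβ sequence (ENSMUSG00000031996, mm10 chr9:31149557-31211815, minus strand). It was at 219.9, 242 and 228 CPM in control and at 243, 241 and 239 CPM in LPS libraries, so the groups overlapped. The means were 230 ± 11.3 and 241 ± 2.14 CPM (log2 fold change 0.07, 95% interval -0.03 to 0.16, edgeR adjusted p = 0.291), and the interval reaches from a change of -2.13% to one of 12.1%. The log2 fold change was 0.02 without control replicate 1 and 0.13 without control replicates 2 and 3, and it was called in neither fit (edgeR adjusted p = 0.723 and adjusted p = 0.159). Under total-count scaling it turned to -0.03 and was not called. A ratio within a library does not depend on how libraries are scaled. The ratio of Aplp2 to App counts was 0.611, 0.654 and 0.622 in control and 0.513, 0.518 and 0.519 in LPS libraries, without overlap. The mean ratio went from 0.629 ± 0.0221 to 0.517 ± 0.00332 (difference in log2 ratio -0.28, two-sided exact permutation p = 0.1, adjusted p = 0.2 over the 4 ratios tested). A p of 0.1 is the smallest that this permutation test can give with 3 libraries against 3. No ratio could therefore pass the threshold in that test. All 3 LPS libraries had a lower ratio than any control library, and the difference stayed between -0.30 and -0.26 when 1 library was left out.

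**Figure D2:**
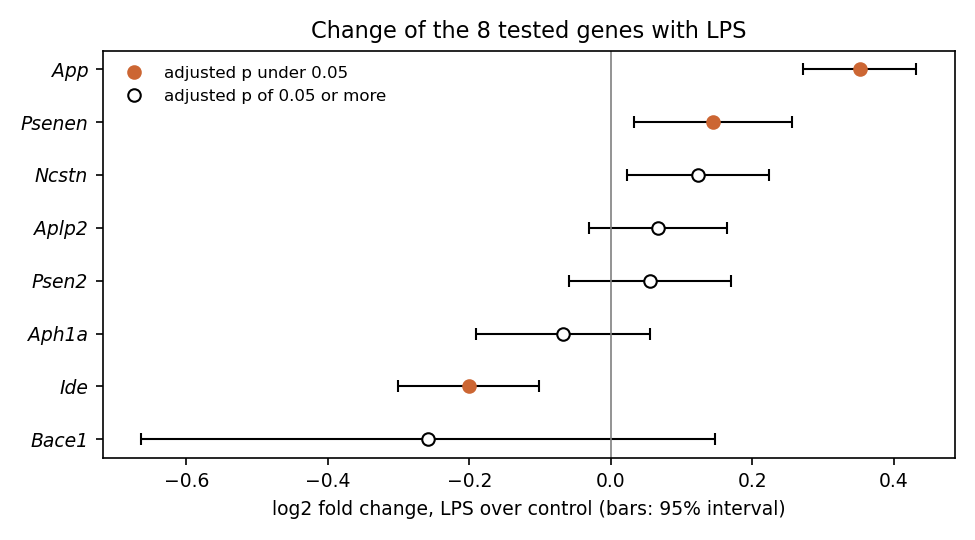
The log2 fold change of LPS over control for the 8 tested genes, with 95% intervals as bars and filled points where the adjusted p was under 0.05. App stands apart at 0.35, Psenen at 0.14 and Ide at -0.20 were also called, and the interval of Bace1 is the widest, from -0.66 to 0.15.

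Bace1, the beta-secretase gene that starts Aβ production (ENSMUSG00000032086, mm10 chr9:45838580-45864399, plus strand), was low. It had 85, 95 and 101 counts in control and 60, 93 and 61 counts in LPS libraries, or 4.96, 5.39 and 5.43 CPM and 3.80, 5.67 and 3.71 CPM. LPS replicate 2 was higher than every control library and the other LPS libraries were lower, so the groups overlapped. The means were 5.26 ± 0.26 and 4.40 ± 1.11 CPM (log2 fold change -0.26, 95% interval -0.66 to 0.15, edgeR adjusted p = 0.329). The spread between LPS libraries (CV 25.1%) was above the counting error at this depth (11.8%), and a change between -36.9% and 10.8% lay within the 95% interval. The log2 fold change was -0.48 without LPS replicate 2 and -0.17 without control replicates 2 and 3, and it was called in neither fit. Bace1 shares 975 exonic bases with Rnf214 on the opposite strand, at 17.3 CPM in control and 19.1 CPM in LPS libraries. It also shares 951 bases with Gm49338 and 135 with the antisense gene Gm16536, which had between 19 and 63 counts in every library. The use of strand in the counting is not given in the sources used here, so reads from these shared bases cannot be told apart.

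Bace2 encodes the BACE1 homolog, which cuts APP mainly at sites within Aβ (ENSMUSG00000040605, mm10 chr16:97356742-97442936, plus strand). It had 1, 3 and 1 counts in control and 1, 0 and 0 counts in LPS libraries. All 6 values are at or below 3 counts, so no fold change is given and Bace2 was not tested, and no ratio of Bace2 to Bace1 could be formed.

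Of the gamma-secretase genes, Psenen, whose product PEN-2 is the smallest subunit and is needed for presenilin endoproteolysis, was called higher, and the other subunit genes among the members, Psen2, Ncstn and Aph1a, were not called. Psenen (ENSMUSG00000036835, mm10 chr7:30561863-30563627, minus strand) was at 55.9, 53.1 and 54.5 CPM in control and at 59.4, 60.4 and 60.8 CPM in LPS libraries, without overlap. The mean went from 54.5 ± 1.37 to 60.2 ± 0.74 CPM, a rise of 10.5% (95% interval 2.26% to 19.4%; log2 fold change 0.14, SE 0.05, edgeR adjusted p = 0.0454). The call lies close to the threshold: it was lost in all 6 fits that left out 1 library (log2 fold change 0.12 to 0.15, adjusted p from 0.0531 to 0.154), in 8 of 11 other settings (0.05 under total-count scaling, 0.10 under upper-quartile scaling and 0.12 to 0.14 in the other 6), and without control replicates 2 and 3 (log2 fold change 0.11, adjusted p = 0.347, edgeR). Genes that share exonic bases with Psenen had at most 4 counts in any library.

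Ncstn encodes nicastrin, the large glycoprotein subunit (ENSMUSG00000003458, mm10 chr1:172066013-172082795, minus strand). It was at 97.5, 105 and 105 CPM in control and at 112, 113 and 110.0 CPM in LPS libraries, and the groups did not overlap, with LPS the higher. The means were 103 ± 4.33 and 112 ± 1.44 CPM (log2 fold change 0.12, SE 0.05), and this difference missed the threshold (edgeR adjusted p = 0.0556). It passed in 4 of the 11 other settings, with the lowest adjusted p of 0.02 in edgeR with the replicate block and the trend over gene length removed and the highest, 0.713, with total-count scaling, where the log2 fold change was 0.02. It passed in none of the fits that left out 1 library, and without control replicate 1 it was 0.08. Without control replicates 2 and 3 it was 0.20 (edgeR adjusted p = 0.0517). Ncstn shares 195 exonic bases with Copa, a coatomer subunit gene on the opposite strand, which itself rose from 274 to 311 CPM (log2 fold change 0.19, SE 0.05, edgeR adjusted p = 0.0117). Whether reads of Copa contribute to the Ncstn counts was not tested.

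Psen2, the presenilin gene among the members (ENSMUSG00000010609, mm10 chr1:180227004-180263438, minus strand), was at 57.2, 56.7 and 55.2 CPM in control and at 59.1, 56.4 and 60.2 CPM in LPS libraries. The groups overlapped, and the means were 56.4 ± 1.05 and 58.6 ± 1.94 CPM (log2 fold change 0.06, 95% interval -0.06 to 0.17, edgeR adjusted p = 0.469). The change ranged from 0.03 (without control replicate 3) to 0.08 (without LPS replicate 2) over the fits that left out 1 library, with 0.04 without LPS replicate 3 and also without control replicates 2 and 3, and it was called in none of them. Under total-count scaling it turned to -0.04, and it was 0.01 under upper-quartile scaling, again without a call.

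Aph1a encodes an APH-1 subunit of the complex (ENSMUSG00000015750, mm10 chr3:95893969-95898288, plus strand). It was at 111, 96.4 and 95 CPM in control and at 97.0, 97.3 and 93.7 CPM in LPS libraries. Control replicate 1 was higher than all other libraries, which lay within 4 CPM of each other. The means were 101 ± 8.58 and 96.0 ± 2.01 CPM (log2 fold change -0.07, 95% interval -0.19 to 0.06, edgeR adjusted p = 0.404). The value moved with control replicate 1 and with the scaling. Without that library the log2 fold change was -0.01, and with it as the only control library the change was -0.20 and was called lower (edgeR adjusted p = 0.0436). With all 6 libraries scaled by total counts it was -0.17 and also called lower (edgeR adjusted p = 0.0322). Car14, which shares 445 exonic bases with Aph1a on the opposite strand, had at most 7 counts in any library.

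Nicastrin is common to every gamma-secretase complex, so the other subunit genes were also set against Ncstn within each library. The ratio of Aph1a to Ncstn was 1.13, 0.915 and 0.907 in control and 0.863, 0.863 and 0.851 in LPS libraries, without overlap (difference in log2 ratio -0.19, exact permutation p = 0.1, adjusted p = 0.2, n = 3 each). Control replicate 1, the highest Aph1a library, carries much of this difference, which was -0.0844 without it. The difference for Psen2 to Ncstn, -0.0690 with all libraries, was -0.0226 without control replicate 1 and -0.0356 without LPS replicate 2. The ratios of Psen2 (0.551 ± 0.0316 and 0.525 ± 0.0232) and of Psenen (0.533 ± 0.0357 and 0.539 ± 0.0123) to Ncstn overlapped between the groups, with exact permutation p = 0.4 and p = 0.8 (adjusted p = 0.533 and p = 0.8). The difference for Psenen to Ncstn, 0.0199 with all libraries, turned to -0.0184 without control replicate 2 and was 0.0733 without control replicate 1.

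**Figure D3:**
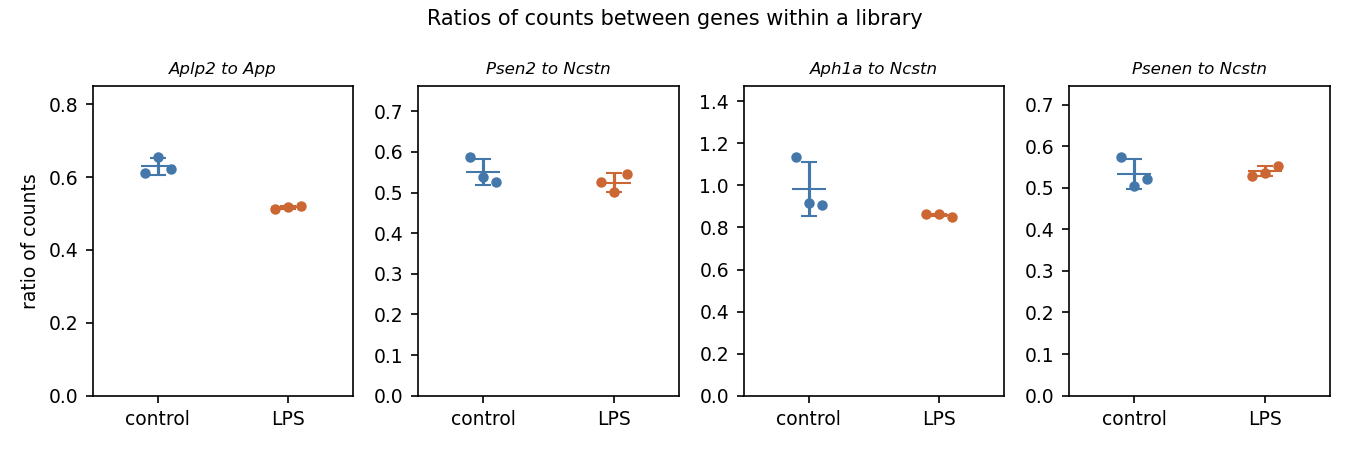
Ratios of counts between genes within each library, 1 panel per ratio with its own axis from 0, with points for libraries and bars for the mean and SD of 3 libraries. The LPS libraries lie below all control libraries for Aplp2 to App and for Aph1a to Ncstn, and the groups overlap in the other panels.

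Ide, the gene of the Aβ- and insulin-degrading protease (ENSMUSG00000056999, mm10 chr19:37268743-37337852, minus strand), fell. It was at 319, 359 and 343 CPM in control and at 302, 296 and 291 CPM in LPS libraries. Every LPS library was lower than every control library, and control replicate 1 was the control library nearest to them. The mean went from 340.4 ± 19.8 to 296 ± 5.41 CPM, a change of -13.0% (95% interval -18.8% to -6.75%; log2 fold change -0.20, SE 0.05, edgeR adjusted p = 0.00366). The call held in each of the 6 fits that left out 1 library (-0.26 to -0.17) and in all 11 other settings (-0.30 to -0.18). Control replicates 2 and 3, the higher control libraries for Ide, are those with hepatocyte marker counts, and without both of them the change was -0.11 and was not called (SE 0.06, edgeR adjusted p = 0.234). The part of hepatocyte RNA in this result was not tested. A processed pseudogene in an intron of Ide, Rpl10-ps6, shares no exonic base with it and had at most 20 counts.

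**Figure D4:**
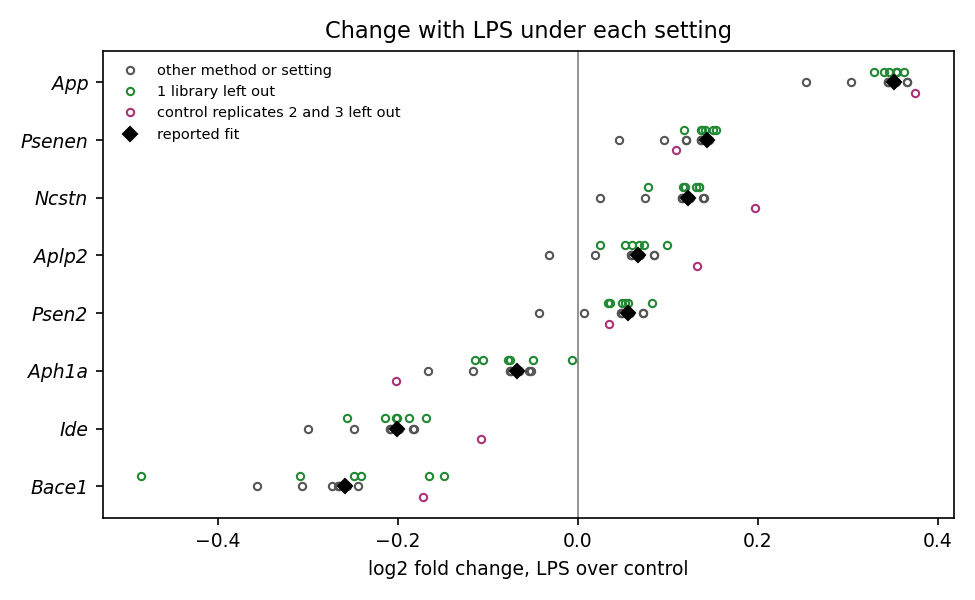
The log2 fold change of each tested gene in the reported fit (diamonds), in other methods or settings (grey), with 1 library left out (green) and with control replicates 2 and 3 left out (purple). App lies between 0.25 and 0.37 throughout, Ide moves to -0.11 without control replicates 2 and 3, and Aplp2 and Psen2 pass 0 when libraries are scaled by total counts alone.

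Per kilobase of the gene length in the deposited table, Ide had the highest level in control cells, at 58.5 ± 3.41 CPM per kb. Psenen followed at 42.8 ± 1.08, Aplp2 at 39.1 ± 1.93, Aph1a at 29.2 ± 2.49, App at 28.1 ± 0.413, Ncstn at 25.8 ± 1.09, Psen2 at 13.0 ± 0.241 and Bace1 at 0.829 ± 0.0409 CPM per kb (SD, n = 3). Only Aph1a and App overlapped among neighbours in this order. In LPS libraries Ide (50.9 CPM per kb), Psenen (47.2) and Aplp2 (41.0) kept their places, App (35.9) came next, and Ncstn (28.1) overlapped Aph1a (27.8). The order depends on the length used, because the deposited length of App, 12996 bases, sums all annotated exons, whereas App-201 has 3176 bases. Per kilobase of the principal annotated transcript of each gene, App was highest, at 115 ± 1.69 CPM per kb in control and 147 ± 2.24 in LPS libraries. Bace1 was the lowest of the tested genes by either length.

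Other genes of APP processing and Aβ clearance were counted from a list of 73 genes, 65 of which were tested. Of these, 23 were called higher (35.4%) and 16 lower (24.6%), beside 18.7% and 15.7% of all genes tested, and their median log2 fold change was 0.04. With total-count scaling these counts became 13 and 26, while the counts over all 12296 genes went from 2294 to 1520 higher and from 1927 to 3342 lower. Without control replicates 2 and 3 the number called lower was 10, while that over all genes tested was 1151. In these settings, the counts given for the list moved in the same direction as those over all genes. The alpha-secretase genes were divided: Adam10, the main alpha-secretase of neurons, fell from 270.2 ± 2.72 to 210.1 ± 3.99 CPM (log2 fold change -0.36, SE 0.04, edgeR adjusted p = 5.9e-06), and Adam17, the TNF-releasing sheddase, rose from 231 to 265 CPM (0.20, adjusted p = 0.00259). Of the other alpha-secretase candidates, Adam9 was lower (-0.30) and Adam8 higher (0.24), both named after their values were seen, and the other tested candidate was not called.

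Among 9 further gamma-secretase genes and modulators, 3 were called higher (33.3%) and 3 lower (33.3%), beside 18.7% and 15.7% of all genes tested. Gsap, the gene of gamma-secretase activating protein, was at 12.4, 10.8 and 13.0 CPM in control and at 40.8, 43.1 and 41.3 CPM in LPS libraries (log2 fold change 1.79, SE 0.09, edgeR adjusted p = 4.1e-10). It was a DEG, as none of the subunit genes was. Ifitm3, an interferon-induced membrane protein gene whose product binds gamma-secretase, rose from 11.5 to 25.1 CPM (1.12, adjusted p = 3.7e-07), and Hif1a rose by 0.22 on the log2 scale. Aph1b fell from 8.68 to 6.29 CPM (-0.46, adjusted p = 0.0126) and Aph1c from 15.0 to 8.85 CPM (-0.76, adjusted p = 6.5e-04), and how the counting divides reads between these near-identical paralogs is uncertain. Arrb1 also fell (-0.50). Hif1a and Arrb1 were named after their values were seen.

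Among the 10 tested genes of amyloid degradation, 3 were called higher (30%) and 2 lower (20%), beside 18.7% and 15.7% of all genes tested, so these shares lie near the background. Plat, the tissue plasminogen activator gene, rose from 0.783 to 1.67 CPM (log2 fold change 1.08, SE 0.32, edgeR adjusted p = 0.0158). Named after their values were seen, the lysosomal cathepsin genes Ctsb (0.15) and Ctsl (0.21) rose while Ctsd (-0.18) and the urokinase gene Plau (-0.24) fell. Nrd1, which encodes the IDE-related protease nardilysin, was at 159.9 and 165 CPM and was not called (log2 fold change 0.05, edgeR adjusted p = 0.445). Mme, the gene of neprilysin, had 1 count in 1 control library and 0 in the others, and Aplp1, the other APP family gene, was at 6.91 and 7.26 CPM (0.07, adjusted p = 0.765).

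Of the 14 tested genes of the APP family, its adaptors and partners (Aplp1 included), 5 were called higher (35.7%) and 2 lower (14.3%), and of 8 BACE trafficking genes 3 were higher (37.5%) and 1 lower (12.5%). Of 3 presenilin homologs 1 was higher, Sppl2a (0.43, named after its value was seen). Of 16 genes of Aβ uptake and carriage, 6 were higher (37.5%) and 6 lower (37.5%). Of all genes tested, 18.7% were called higher and 15.7% lower. Tlr2, a surface receptor for bacterial lipoproteins that also binds fibrillar Aβ, went from 123 to 424 CPM (log2 fold change 1.78, SE 0.04, edgeR adjusted p = 1.6e-13) and was the other DEG of the list.

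**Figure D5:**
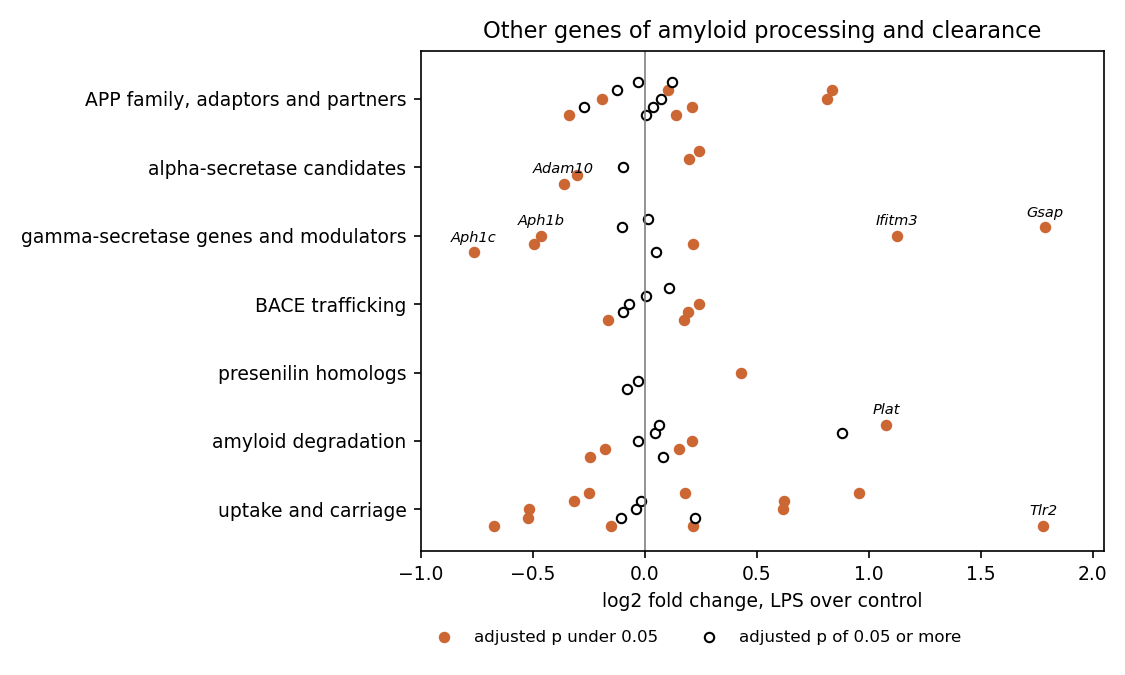
The log2 fold change of LPS over control for the 65 tested genes of the list, 1 point per gene in rows by role, filled where the adjusted p was under 0.05. Gsap (1.79), Tlr2 (1.78), Ifitm3 (1.12) and Plat (1.08) lie above 1, and Aph1c (-0.76) is the lowest.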

How the data were processed

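RNA from 3 control and 3 LPS-treated samples of N9 microglia was sequenced, and treatment and replicate number were taken from the labels. The authors deposited read counts per gene without normalization, and 0 lines lacked a gene name. The submitters' processing notes name featureCounts 1.5.0-p3 and mm10. The aligner, the annotation release and the use of strand are not given in the sources used here. A second table, with 20 columns of values per library or group and the authors' own fold changes and p-values, was not used.

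Counts were analysed in R 4.3.3 with the edgeR 4.0.16 quasi-likelihood test (TMM normalization, filterByExpr by group, prior count 0.125). It was fitted to all genes that passed the filter. The code was checked on simulated data, and the recovery of small changes there is not given here. P-values were adjusted by the Benjamini-Hochberg method over the 12296 tested genes. CPM were computed from TMM-scaled libraries of those genes, and SE is the log2 fold change divided by the square root of F. Ratios were compared by exact permutation over libraries. A planned ratio and a gene of the wider list are not reported here and were left out of the counts. Within each group, libraries differed by more than sampling noise (chi-square per gene 3.61 to 7.82), so none was treated as a repeat deposit of another, which does not show that they are independent cultures.

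The genes and lists were chosen with earlier results of these data known. All 9 genes are named. Of the wider list, genes called with an absolute log2 fold change of at least 1 and direct partners are named, and others are marked where they appear. Positions are those deposited, and transcripts are from GENCODE release M21. The alternatives were DESeq2 1.42.0, RLE, upper-quartile and total-count scaling, no filter, a minimum mean of 10 counts, robust dispersion, a replicate block, a gene-length trend removed (lowess span 0.3), both together, protein-coding genes alone and each library left out. Leaving out control replicates 2 and 3 together and transcript length were added after the data were seen. Figures used matplotlib 3.10.9.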

Additional observations from a re-analysis of the deposited data

How the results depend on the processing

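App rose and Ide fell past the threshold in each fit that left out 1 library and in all 11 other settings, and Ide alone of them was not called without control replicates 2 and 3. Members called higher numbered 2, and 1 in DESeq2, with RLE, upper-quartile or total-count scaling, with no filter, with robust dispersion, without control replicates 2 and 3 and in every fit without 1 library (1 to 1). They numbered 3 among protein-coding genes alone. With the replicate block, members called higher numbered 3 (App, Psenen and Ncstn) and lower 1. Same-numbered libraries correlated by 0.131, 0.0484 and 0.0049, and control replicate 2 correlated best with LPS replicate 3 (0.0772). These correlations are weak and rest on few libraries, so they cannot show whether the numbers pair the libraries. Scaling by total counts gave 2 members lower (Aph1a, adjusted p = 0.0322, and Ide), 1520 genes higher and 3342 lower in place of 2294 and 1927, and 13 higher and 26 lower in the list of other amyloid genes in place of 23 and 16. That scaling also turned Aplp2 (-0.0315) and Psen2 (-0.0427). Without control replicates 2 and 3, 1151 genes and 10 of the list were lower. Over fits without 1 library, genes called higher ranged from 1833 to 2152, genes called lower from 1546 to 1929, and DEG from 353 to 377, against 326. DEG numbered 469 with no filter. The rank of App by level per kb was 5, and 1 with transcript length. The log2 ratio of Psenen to Ncstn differed between groups by -0.0184 to 0.0733 over fits without 1 library, and so changed sign, and that of Aph1a to Ncstn by -0.245 to -0.0844. The cause of these differences was not tested. Bace2 had at most 3 counts per library and was not tested, and counting error alone was 11.8% per LPS library for Bace1.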
